A study of Caenorhabditis elegans with 4 samples.

Results

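The sites described here are the LIN-53 peaks of chromosome V of Caenorhabditis elegans, taken as every row of the authors' combined peak list that lies on V. There were 208 of them among 1221 peaks on all chromosomes. The lists of the separate samples had 182 peaks on V of 1047 in replicate 1, and 191 of 1001 in replicate 2. They come from ChIP-seq, in which DNA bound by a protein is precipitated with an antibody and sequenced. The study had 4 samples, namely 2 LIN-53 ChIP samples and 2 input samples, all from wild-type N2 hermaphrodites at the late embryo stage. N2 is the standard laboratory strain, and no mutant, tagged or treated group was included. Gravid adults were bleached for embryos, which then spent 3.5 hours in M9 buffer before freezing. All 4 samples shared growth at 20 C and fixation for 10 min in 1% formaldehyde. The antibody, SDQ2370, is an affinity-purified rabbit polyclonal against LIN-53. The extracts were of whole embryos, so binding in fewer cells and weaker binding in each cell cannot be told apart. No peak list of the input samples was used. The labels do not say whether both ChIP samples came from separate cultures, so differences between them may be technical.

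LIN-53 is a histone-binding WD-repeat protein, the worm counterpart of mammalian RBBP4 and RBBP7, which were first found as partners of the retinoblastoma protein. It is a shared subunit of several chromatin complexes, including the DRM complex, which represses transcription of its target genes, and the NuRD nucleosome remodelling and deacetylase complex. It is also needed to load the centromeric histone variant in the worm, whose chromosomes are holocentric. In worm autosomes the centres hold many of the conserved and broadly expressed genes, whereas the arms recombine more, hold more repeats and carry more of the chromatin marks linked to silencing. Chromosome V is known for large families of chemoreceptor genes, many of them on its arms.

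LIN-53 sites were sparser on V than on the other autosomes, with a somewhat lower median score and a median width close to theirs. The combined list had 9.96 peaks per Mb of V (95% exact Poisson interval 8.65 to 11.4) over a called span of 20.89 Mb, counted up to the rightmost base that any of the lists calls. The other 4 autosomes together had 15.5 per Mb (14.5 to 16.5), and they differed among themselves, from 12.7 per Mb on IV to 17.9 on III. The ratio of V to the other autosomes was 0.64 in the combined list and in replicate 1 and 0.76 in replicate 2, with two-sided exact binomial p-values against span of 1.75e-09, 2.06e-08 and 0.00047. This pooled test takes no account of the spread between chromosomes. These tests and all others here count peaks as independent, which neighbouring peaks are not, and they measure no spread between samples. Peaks with a given start covered 0.41 Mb of V, or 1.95% of its span, against 3.10% on the other autosomes.

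The authors' score, the only value given per peak, ran from 50.35 to 3100 on V, where 3100 is a ceiling: 1 combined peak of V and 5 of the other autosomes stand at exactly that score. No source used here gives its unit, and it may grow with sequencing depth, which is unknown. The lists also end at a similar low score, since the lowest on V was 50.48 in replicate 1 and 51.77 in replicate 2. A site that a list lacks has no score there. Signal too weak to be listed and no binding thus cannot be told apart, and support by a replicate refers to its list only. The other autosomes together had a median score of 183.5, and singly from 170.8 on I to 191.9 on II. The median on V was lower than each of these, at 160.0, with quartiles of 85.9 and 440.4. Scores were thus spread over a long upper tail: 46 of the 208 peaks scored over 500, and 16 scored over 1000. Of the peaks on V, 48.6% (95% Wilson interval 41.8% to 55.3%) lay above the median of the whole list, 170.9, against 52.6% (49.4% to 55.7%) on the other autosomes. This difference did not pass (two-sided Fisher's exact test, adjusted p = 0.68). Median peak width was 1771 bp on V and 1754 bp on the other autosomes.

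The strongest LIN-53 site of V lay in the chromosome centre, from 10896568 to 10898056 on the WS220 build. It scored 3100 in the combined list, 3100 in replicate 1 and 3055 in replicate 2, and it was the strongest site of V in both replicates. No other site of V reached that level in either replicate. The second site, from 16964899 to 16966470 in the right arm, scored 2374, with 2255 in replicate 1 and 684.8 in replicate 2. The third, from 772825 to 774484 in the left arm, scored 2112, with 2088 in replicate 1 and 801.9 in replicate 2. In these last sites replicate 1 carried the higher score. At the first site the replicate 1 score stands at the ceiling, so its scores do not show how the replicates compare there.

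The 15 highest-scoring sites were spread along the whole chromosome, with 4 in the left arm, 5 in the centre and 6 in the right arm. Each of them overlapped a peak in both replicates. Besides the first, the sites in the centre were from 9543074 to 9547645 with a score of 1930, from 11520762 to 11522213 with 1712, from 12290549 to 12292371 with 1437, and from 11000273 to 11001673 with 1381. Besides the second, those in the right arm began at 18967109 with a score of 1844, at 18532718 with 1570, at 20492500 with 1419, at 17919920 with 1389 and at 15000707 with 1255. Besides the third, those in the left arm began at 2418460 with 1605, at 2526721 with 1347 and at 2600190 with 1286. The last 3 all lie between 2418460 and 2601371. Over the 15 sites, scores ran from 1047 to 3100 in replicate 1 and from 248.7 to 3055 in replicate 2.

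**Figure D1:**
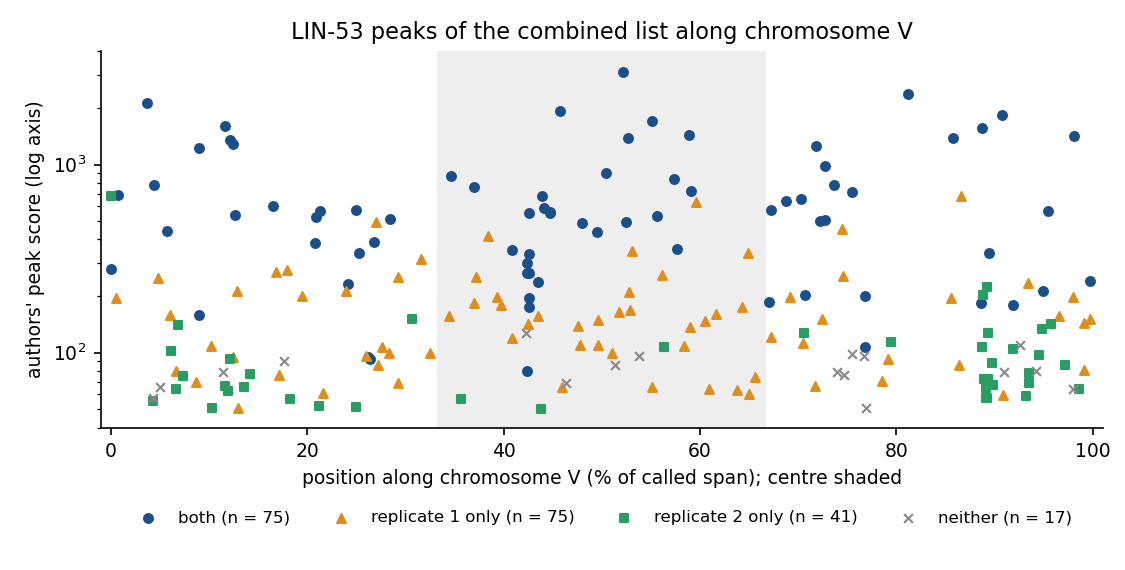
Each point is 1 of the 208 combined LIN-53 peaks of chromosome V, placed by its midpoint in percent of the called span (horizontal axis) and by the authors' score on a log axis (vertical axis); marker and colour give the replicates that overlap it, and the centre is shaded. Of the 46 peaks over 500, 43 are in both replicates, and the peaks of replicate 2 only lie mostly outside the shaded centre.

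Support by the replicates followed the score. Of the 208 sites, 75 (36.1%, interval 29.8% to 42.8%) overlapped a peak of both replicates by 1 bp or more, and another 75 (36.1%) overlapped replicate 1 only. A site in both did not need replicate peaks that overlap each other, and at the site from 5307 to 9351 they did not. Replicate 2 alone supported 41 (19.7%; 14.9% to 25.7%), and 17 (8.17%; 5.17% to 12.7%) overlapped neither. Over all 1221 combined peaks the corresponding shares were 37.7%, 34.1%, 18.9% and 9.34%, so the support of the sites on V was near that of the whole list. None of the 4 classes passed in the comparison of V with the other autosomes (Fisher's exact tests, adjusted p from 0.68 to 0.89). Of the 7 shares of V compared with the other autosomes in the combined list, 0 passed after adjustment, and 0 had an unadjusted p under 0.05 (smallest Fisher's exact p = 0.11). The median combined score was 552.6 in both, 149.0 in replicate 1 only, 75.5 in replicate 2 only and 79.2 in neither.

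Split by score into 4 sets of 52 peaks, the sites of V went from 1 in both replicates in the lowest set (1.92%; 0.34% to 10.1%) to 4 in the second, 23 in the third and 47 in the highest (90.4%; 79.4% to 95.8%). The other 5 peaks of the highest set were each found in 1 replicate. In replicate 1 only were the sites that began at 18085726 with a combined score of 682.1, at 12450042 with 635.4, at 5639827 with 497.0 and at 15567268 with 456.8. In replicate 2 only was the peak at the left tip. The combined score is not independent of the replicate peaks, so this trend is a description of how the lists relate.

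In the combined list, no region of V stood out in the number of LIN-53 sites. The span was divided into a left arm up to 6964527, a centre up to 13929054 and a right arm, each with 33.3% of it, and peaks were placed by their midpoint. The left arm held 66 peaks (31.7%; 25.8% to 38.3%), the centre 68 (32.7%; 26.7% to 39.3%) and the right arm 74 (35.6%; 29.4% to 42.3%). None of the regions differed from its share of the span (exact binomial tests, adjusted p = 0.88 for each, smallest unadjusted p = 0.51). On the other autosomes the centres held 28.1% (25.3% to 31.0%), and the difference from V did not pass (Fisher's exact test, adjusted p = 0.68).

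The replicates differed in the centre of V. Replicate 1 had 61, 66 and 55 peaks in the left arm, centre and right arm, with no region differing from its share of the span (exact binomial tests, smallest adjusted p = 0.65). Replicate 2 had 72, 45 and 74, so that its centre held 23.6% of its peaks (18.1% to 30.1%; exact binomial test, adjusted p = 0.013). The comparison of the replicates was made over the sites that the other one lacked, since shared sites are in both lists. Of these, 37 of 108 in replicate 1 (34.3%; 26.0% to 43.6%) and 16 of 116 in replicate 2 (13.8%; 8.67% to 21.2%) were in the centre (Fisher's exact test, p = 0.00047, a test added after the values were seen). The other autosomes had shares in the same order. Their centres held 34.1% of 834 peaks in replicate 1 and 22.4% of 745 in replicate 2, and 34.0% of 453 and 10.3% of 359 among the sites that the other replicate lacked. The difference between V and the other autosomes was 2.21 percentage points in replicate 1 and 1.14 in replicate 2 (Fisher's exact tests, adjusted p = 0.61 and 0.81).

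**Figure D2:**
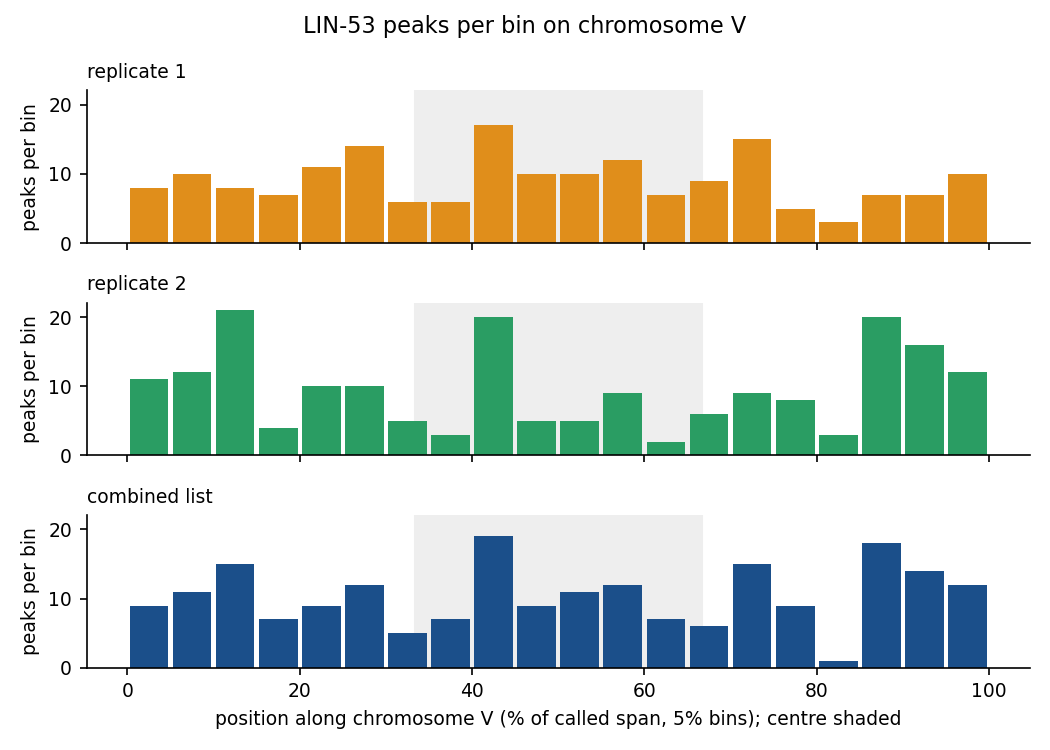
Bars give the number of LIN-53 peaks of chromosome V in each 5% of the called span (horizontal axis, percent of span; 1 bin is 1.04 Mb), for replicate 1, replicate 2 and the combined list, with the centre shaded. Replicate 2 has 20 and 16 peaks in the bins from 85% to 95%, where replicate 1 has 7 in each, while both replicates are high in the bin from 40% to 45%.

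Counted in 20 bins of 5% of the span, the combined list held 1 to 19 peaks a bin, with a median of 10. The fullest bin, from 8357433 to 9402111 in the centre, had 19 combined peaks, 17 in replicate 1 and 20 in replicate 2. Of those 19, 14 were found in both replicates, so this was also the bin with the most sites in both. A single stretch of 51.9 kb, from 8847020 to 8898879, held 9 of the 19 and 8 of the 14. The bin from 17759545 to 18804223 in the right arm had 18 combined peaks, with 7 in replicate 1 and 20 in replicate 2. There 11 of the 18 were found in replicate 2 only. These 11 lay within 239.4 kb, from 18537529 to 18776966, and had low scores, from 57.2 to 223.9 with a median of 72.4. The bin from 2089359 to 3134037 in the left arm differed in the same direction, with 8 peaks in replicate 1 and 21 in replicate 2. The bin from 12536150 to 13580828 in the centre differed the other way, since all 7 of its combined peaks were in replicate 1 only. Over the 20 bins the counts of the replicates had a Spearman's rho of 0.42 and a Pearson's r of 0.35, given as a description across bins of the same chromosome. These bins were chosen with their counts in view.

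Sites found in replicate 2 only were rare in the centre of V and frequent on its arms. They were 3 of the 68 combined peaks in the centre (4.41%; 1.51% to 12.2%), 16 of 66 in the left arm (24.2%; 15.5% to 35.8%) and 22 of 74 in the right arm (29.7%; 20.5% to 40.9%). Against both arms together, with 38 of 140 (27.1%), the centre was lower by Fisher's exact test (adjusted p = 0.00025 over 4 classes). The difference passed with 1 peak kept for each close group (5.26% against 22.6%, Fisher's exact test, adjusted p = 0.017), and did not pass among peaks above the median score of their list (7.69% against 17.7%, Fisher's exact test, adjusted p = 0.42). On the other autosomes the shares were 4.85% of 268 in the centres and 22.7% of 687 on the arms. The sites of V in replicate 2 only had a median combined score of 75.5, close to the lowest score of that list, 50.35. Whether replicate 1 had signal at these sites that was too weak to be listed was not tested.

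Sites found in replicate 1 only were 32 of 68 in the centre (47.1%; 35.7% to 58.8%) and 43 of 140 on the arms (30.7%; 23.7% to 38.8%), a difference that missed the threshold (Fisher's exact test, adjusted p = 0.061). Sites in both replicates were 29 of 68 in the centre (42.6%; 31.6% to 54.5%) and 46 of 140 on the arms (32.9%; 25.6% to 41.0%; Fisher's exact test, adjusted p = 0.29). This last difference did pass when midpoints within 200 bp were required for a shared site (35.3% against 17.1%, Fisher's exact test, adjusted p = 0.0098), and shrank to 38.6% against 36.5% with 1 peak kept for each close group (Fisher's exact test, adjusted p = 1). The sites in both had like scores in the 3 regions, with medians of 535.6 in the left arm, 552.6 in the centre and 570.7 in the right arm. Over all combined peaks the median score was 145.2, 195.6 and 137.7 in the same order, and the share above the median of the whole list was 45.5%, 57.4% and 43.2%, with intervals that overlap.

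**Figure D3:**
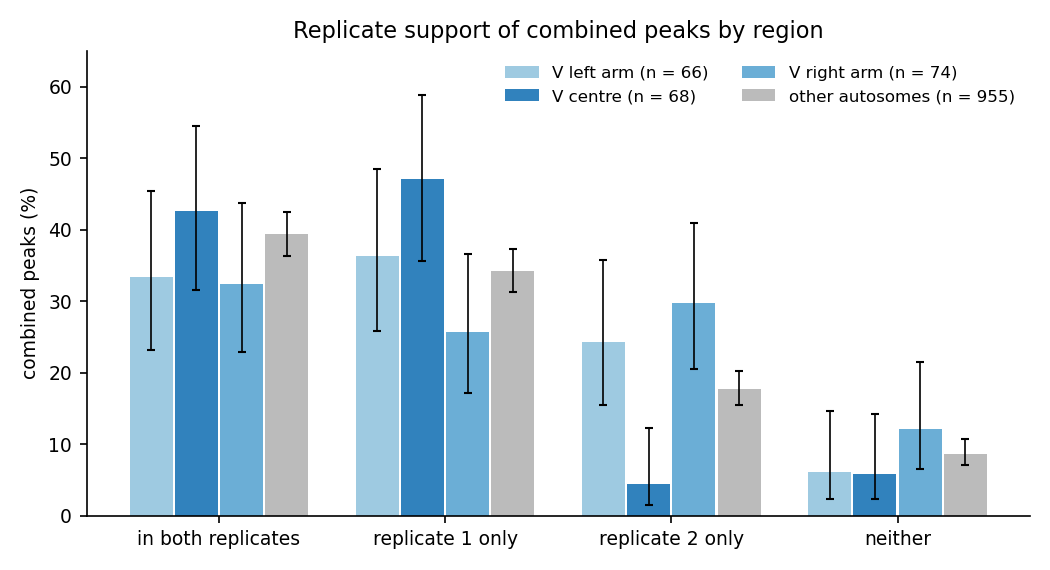
Bars give the share of combined peaks (vertical axis, percent) that overlap both replicates, 1 of them or neither, for the left arm, centre and right arm of chromosome V and for the other autosomes; error bars are 95% Wilson intervals and cover counting error only. Replicate 2 only accounts for 4.41% of the centre, below 24.2% and 29.7% on the arms.

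Seen from each replicate, 74 of the 182 replicate 1 peaks on V overlapped a replicate 2 peak (40.7%; 33.8% to 47.9%), and 75 of the 191 replicate 2 peaks overlapped a replicate 1 peak (39.3%; 32.6% to 46.3%). The other replicate thus lacked 108 of 182 replicate 1 peaks and 116 of 191 replicate 2 peaks on V. On the other autosomes it lacked 453 of 834 and 359 of 745, a smaller part in both lists. This difference from V was not tested. Peaks of replicate 1 that replicate 2 shared had a median score of 595.6 and the others 157.8. In replicate 2 the medians were 153.4 and 81.9. In the centre, 64.4% of 45 replicate 2 peaks were shared (49.8% to 76.8%), against 30.6% of 72 in the left arm and 32.4% of 74 in the right arm. In replicate 1 the shares were 43.9%, 34.4% and 43.6% for the centre, left arm and right arm.

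Sites of V that overlapped one to one in both replicates numbered 73, and they scored higher in replicate 1 at 60 of them. The median log2 ratio of replicate 1 to replicate 2 was 1.72, with quartiles of 0.47 and 2.35 and a range from -4.32 to 3.95. On the other autosomes the median over 371 such pairs was 1.90. A score may carry the depth of its library, so these ratios do not separate binding from depth. Across the 73 pairs, Spearman's rho of the scores was 0.45 and Pearson's r of the log2 scores was 0.42, as a description over sites of 2 libraries. The midpoints of a pair lay a median of 64 bp apart, and 50 pairs had midpoints within 200 bp.

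The right arm held most of the pairs that scored higher in replicate 2. These were 9 of the 24 pairs in the right arm, 3 of 29 in the centre and 1 of 20 in the left arm, and the median log2 ratios were 1.03, 1.71 and 1.96. Such counts are not given here for the other autosomes, so this is not shown to be particular to V. The pair with the lowest ratio, from 14766152 to 14770213, scored 60.4 in replicate 1 and 1209 in replicate 2. That was the third-highest score of replicate 2 on V, whereas the combined score of the site was 202.8. The next pairs in that order began in replicate 1 at 18676036, with 53.1 in replicate 1 and 305.1 in replicate 2, and at 19828004, with 50.5 and 181.2.

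**Figure D4:**
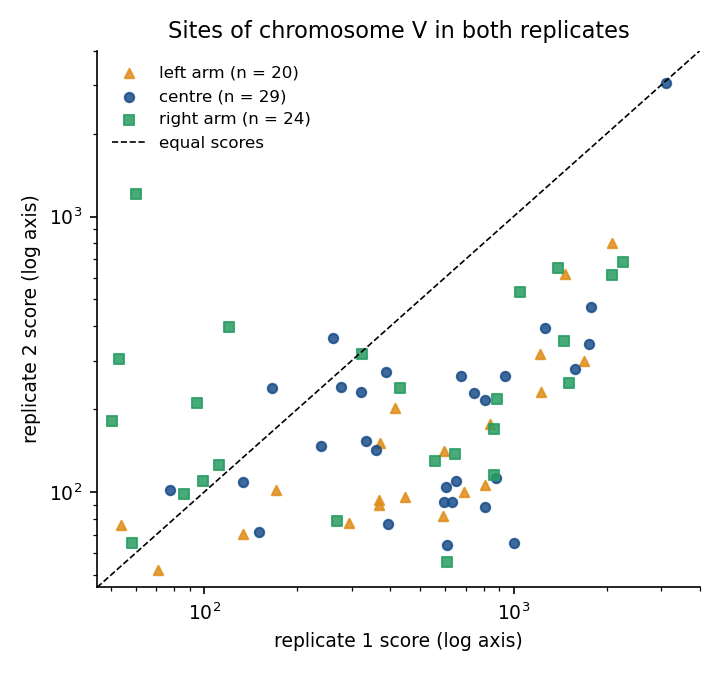
Each point is 1 of the 73 LIN-53 sites of chromosome V that overlap one to one, with the replicate 1 score on the horizontal axis and the replicate 2 score on the vertical axis, both log axes of the authors' score; colour and marker give the region, and the dashed line marks equal scores. Of the points, 13 lie above the line, 9 of them in the right arm.

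Among the 207 peaks of V with a given start, the quartiles of width were 1372 and 2260 bp, against 1337.5 and 2393 bp on the other autosomes. On V, 16 of the 207 (7.73%) were wider than 3000 bp, a share not given here for the other autosomes. Of these 16, 11 were found in both replicates, and the left arm, centre and right arm held 5, 5 and 6. The widest, 7373 bp from 3434167 to 3441539 in the left arm, scored 605.1, with 1694 in replicate 1 and 299.1 in replicate 2. The site from 2418460 to 2425411 spanned 6952 bp and was the only one of the 208 that covered more than 1 peak of a replicate, namely 2 of replicate 2. The site from 6401640 to 6407826, with 6187 bp, had a score of 150.4 and was found in replicate 2 only. The remaining pair of the 5 widest were the strong centre site from 9543074, with 4572 bp, and the site from 14766152 to 14770235, with 4084 bp. Score and width had a Spearman's rho of 0.26 over the 207 peaks, as a description.

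Of the 208 sites, 65 (31.2%; 25.3% to 37.8%) had a neighbour at a gap under 10 kb. They formed 29 groups, of which 24 were pairs, 4 held 3 peaks and 1 held 5. The right arm had the most grouped peaks, 30 of 74 (40.5%), beside 18 of 68 in the centre and 17 of 66 in the left arm. On the other autosomes 37.4% of peaks were grouped (34.4% to 40.5%), and the difference from V did not pass (Fisher's exact test, adjusted p = 0.68). In the replicate 2 list alone it was reversed, with 44.5% of peaks on V grouped, 10.7 percentage points above the other autosomes (Fisher's exact test, adjusted p = 0.021 in a family of 3). Replicate 1 alone had 27.5%, a difference of -4.06 points from the other autosomes (Fisher's exact test, adjusted p = 0.61).

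The largest group, with 5 peaks from 8883862 to 8898879 in the centre, was found in both replicates at every peak. From left to right its combined scores were 194.2, 266.2, 175.9, 334.6 and 552.6. Its replicate 1 scores were 77.6, 238.7, 165.5, 275.8 and 605.6, and its replicate 2 scores were 101.4, 146.5, 238.0, 240.2 and 104.2. The last peak was the highest of the group in replicate 1 and among the low ones in replicate 2, so the order within the group differed between the replicates. A second group, with 3 peaks from 8847020 to 8854344, lay on its left, also with every peak in both replicates, and had combined scores of 300.1, 265.2 and 79.5. A single peak found in replicate 1 only lay between these groups, which makes 9 peaks in 51.9 kb. Of the 8 grouped peaks, 7 were 1624 to 1708 bp wide and 1 was 3663 bp wide, and the midpoints followed each other at 2463 and 3167 bp in the group of 3 and at 4262, 2456, 3112 and 2525 bp in the group of 5. This spacing was looked at after the groups were named.

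The other large groups mixed the replicates or belonged to 1 of them. The group from 18652887 to 18664307 in the right arm had 3 peaks, all in replicate 2 only, with combined scores of 57.2, 72.1 and 127.4. The group from 15567268 to 15590893 had 3 peaks, of which 2 were in replicate 1 only, with combined scores of 456.8 and 254.4, and 1 in neither, with 76.4. In the left arm, the group from 894798 to 905812 had a site in both replicates with a score of 778.4 beside 2 weak peaks, with 55.4 in replicate 2 only and 57.5 in neither. Of the 29 groups, 13 had members of a single support class.

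The median gap between neighbouring peaks of V was 56582 bp, against 36128 bp on the other autosomes, and 10 gaps were longer than 300 kb. The longest, 903633 bp from 16966471 to 17870103 in the right arm, begins at the second-strongest site of V. It is not empty in the replicates: 2 peaks of replicate 1 and 1 of replicate 2 lie inside it. The gap of 615712 bp that ends at the third-strongest site, from 157113 to 772824, held no replicate 1 peak and 3 of replicate 2. The gap of 483898 bp from 2950269 to 3434166, which ends at the widest peak, held no peak in either replicate.

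Some strong peaks were called in 1 replicate alone. In replicate 1 the highest began at 18085712 with a score of 954.1, at 12450042 with 794.3, at 5639785 with 757.4, at 3520414 with 638.4 and at 15569229 with 501.9. All 5 had a combined peak, and the nearest replicate 2 peak was 29271 to 172256 bp away. In replicate 2 the highest was the left-tip peak, which ends at 722, has no given start and scored 1942, second on V in that list, with a combined score of 682.0. The next, 7676 bp wide from 10605227 to 10612902 in the centre, scored 584.4 and overlapped no combined peak. The others began at 14755155, 20306043 and 18537537 and scored 259.7, 243.7 and 222.0, the middle one of which also had no combined peak. On V the lists differed in what was carried over: 150 of 182 replicate 1 peaks (82.4%; 76.2% to 87.3%) and 117 of 191 replicate 2 peaks (61.3%; 54.2% to 67.9%) overlapped a combined peak. These shares are not given here for the other chromosomes, so the difference is not shown to be particular to V. The replicate peaks of V without a combined peak scored up to 380.0 in replicate 1 and 584.4 in replicate 2.

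The 17 combined peaks that neither replicate contained were all weak, from 50.5 to 127.5. The highest of them were from 8825114 to 8827105 with a score of 127.5, from 19343202 to 19346014 with 109.2, from 15770510 to 15772413 with 97.8, from 16021850 to 16024220 with 95.8 and from 11228090 to 11229442 with 95.7. The weakest peak of V, from 9159391 to 9160762 with 50.35, was found in replicate 2, where it scored 52.7. Where both replicates contained a site, the combined peak spanned a median of 1.03 times the joint extent of the replicate peaks, and its score lay between those of the replicates at 35 of 75 such sites.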

How the data were processed

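Per the file headers, positions are on WormBase WS220, and no peak on V is among those that comment lines mark as altered when lifted from another build. BWA was the aligner, per the submitters' processing notes. Its version, the calling threshold and how the combined list was made are unstated in these sources. The deposited values are a score per peak given by the authors. The source column names MA2C and the peak names MACS, so the caller is not settled. Depth per sample is unknown. Peaks were used unfiltered; a start given as a dot (1 peak on V in replicate 2 and 1 in the combined list) was read as 1 and left out of widths.

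Overlap of 1 bp or more counted as shared. Exact binomial, Fisher's exact and Benjamini-Hochberg calculations were two-sided at 0.05, within families of 3 regions, 4 support classes or 7 shares of V against the other autosomes. In each replicate list alone, V was compared with the other autosomes in a family of 3 shares, for centre, close groups and score. Intervals are at 95%, Wilson for shares and exact Poisson for densities. Scipy 1.17.1 and numpy 2.4.6 under Python 3.11.15 gave the statistics, with pandas 2.3.3 for tables and matplotlib 3.10.9 for plots. Support classes, one-to-one pairs, close groups, the centre share and Fisher's exact test were tested on simulated data. The other calculations were not tested in this way. Named sites are the 15 highest, the 5 widest, the 5 largest close groups, the 5 highest in neither replicate, for each replicate the 5 highest without an overlap in the other, the left tip and the lowest; the comparison of replicate centre shares, bins, gaps, pairs higher in replicate 2 and further sites were chosen after their values were seen. Members and rules were chosen with earlier results of these data known. Genes and sequence are not analysed here, since the gene table at hand is on WBcel235.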

Additional observations from a re-analysis of the deposited data

How the results depend on the processing

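Of 90 alternative values, 66 kept their direction and call or stayed within a set band. That band was counting error for shares, and the median plus or minus the SD over pairs for the replicate score ratio. Density on V stayed below the other autosomes in all 4 alternatives tried, from 0.59 to 0.76 times theirs. Peak share over span share was 1.00 and 1.13 for the left arm, 1.09 and 0.71 for the centre (exact binomial test, adjusted p = 0.013 for the last) and 0.91 and 1.16 for the right arm in the replicate 1 and replicate 2 lists alone. It was 1.16 for the centre and 0.95 for the right arm with above-median scores. Centre minus arms was -10.1 points for replicate 2 only with above-median scores, and 18.1 points for both with midpoints within 200 bp. With above-median scores, support on V was 43.6% in both and 13.9% in replicate 2 only. With midpoints within 200 bp it was 23.1% in both and 19.7% in neither. V minus other autosomes turned to -1.41 points for replicate 1 only with above-median scores and to -0.12 for replicate 2 only with 50% overlap of both peaks, with no call in any setting. Replicate overlap was 27.5% and 26.2% (midpoints) and 49.4% and 47.4% (above-median scores) of replicates 1 and 2. Grouped peaks were 24.0% with gaps under 5 kb, 46.6% under 20 kb, 14.9% with above-median scores, and 27.5% and 44.5% in the replicate 1 and 2 lists alone, with V minus other autosomes at -4.06 and 10.7 points. The causes of these shifts were not tested. Keeping 1 peak per close group, and leaving out the left tip when support was compared by region, were chosen after seeing the data. No combined list was remade without a replicate. No paired analysis was possible because only the ChIP samples have lists, so a shared number pairs nothing.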
